A study of Mus musculus with 21 samples.

Results

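The comparison set mouse megakaryocyte-erythroid progenitors (MEP) that carry the S211I change in Etv6 against MEP that lack it. Carriers were the 3 libraries of the double mutant (S211I and P216L together) and the 2 libraries of S211I alone. Non-carriers were the 3 P216L libraries and the 2 WT libraries. The WT libraries are labelled replicates 1 and 3, and the series lists no WT MEP replicate 2. Libraries were chosen by cell type and genotype label alone, which gave 10 of the 21 libraries of the series, 5 carriers and 5 non-carriers. Because 3 of 5 libraries on each side also carried P216L, P216L status entered the model as a second factor. All MEP came from bone marrow by flow sorting. The sources used here do not give zygosity, age, sex, or whether each library came from its own animal. The p-values therefore cover the variation among these libraries, which may be technical. The genotype field writes P211I where the sample titles write S211I, and the title form is used.

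Etv6 encodes an ETS-family transcription factor that acts mainly as a repressor: one domain joins ETV6 molecules to each other, the ETS domain binds DNA around a GGAA core, and the stretch between them recruits co-repressors. In blood, Etv6 is needed to maintain adult stem cells and for platelet formation from megakaryocytes, and inherited human ETV6 mutations cause low platelet counts with a risk of leukemia. MEP are the bone marrow cells that give rise to red cells and to megakaryocytes. The series title names a mutation that gives the protein a signal for leaving the nucleus, and the sources do not give the purpose of the S211I change.

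Carriers held 4805997 to 8667242 counts per library and non-carriers 3387389 to 12130358, with 12723 to 15914 genes detected. The 12 MEP markers were Gata1, Klf1, Gfi1b, Epor, Tfrc, Kit, Zfpm1, Tal1, Nfe2, Car1, Car2 and Rhag. They summed to 21500 to 23500 CPM (counts scaled to the size of each library) in carriers and 22800 to 26200 CPM in non-carriers. Most of each sum came from Car1 (7819 to 9635 CPM over all libraries) and Car2 (9063 to 12880 CPM). The sum therefore says little about the other markers. The 6 stem cell markers summed to 10.1 to 35.6 CPM in carriers and 11.9 to 43.8 CPM in non-carriers, and the 7 granulocyte-macrophage markers to 21.6 to 71.5 CPM in carriers and 2.3 to 108 CPM in non-carriers. Libraries WT replicate 1 and P216L replicate 3 lay at opposite ends of the first principal component, which held 19.7% of the variance. They also held the lowest and the highest granulocyte-macrophage sum. The 4 Y-linked genes examined summed to 227.3 to 278.2 CPM in carriers and 253.7 to 312.4 CPM in non-carriers. A list of Xist and a companion gene summed to at most 1.658 CPM in any library. Each library thus had a male pattern of expression, although the sources do not give sex. Below, CPM are scaled by trimmed mean of M values (TMM) factors, and a gene passes the threshold at an adjusted p under 0.05.

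Over all 10 libraries, no gene passed the threshold for S211I. Of 10480 genes tested with edgeR's quasi-likelihood test, 0 passed (0.0%) after Benjamini-Hochberg adjustment. At an unadjusted p under 0.05 there were 367 genes (3.5%), 200 of them higher (1.91%) and 167 lower (1.59%) in carriers. Carrier and non-carrier libraries did not overlap for 74 genes (0.706%), with carriers above for 45 (0.429%) and below for 29 (0.277%). DESeq2 called 4 genes (0.0382%), Ccnd1, Alox5, Mbd2 and Ybx3, and limma voom with quality weights called 0 (0.0%). Without the low-count filter, edgeR called 13 of 22203 genes (0.0586%). The P216L term of the same fit gave 0 calls (0.0%) and 729 genes at an unadjusted p under 0.05 (6.96%).

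Etv6 itself was listed at 41.7, 29.0 and 31.5 CPM in the double mutant and 46.8 and 35.9 CPM in S211I. It was at 24.9, 37.1 and 32.5 CPM in P216L and 23.4 and 32.7 CPM in WT. The carrier and non-carrier ranges overlapped. The additive log2 fold change was 0.29 ± 0.17 (SE), with an edgeR adjusted p of 0.9997. An exact two-sided permutation test of log2(CPM + 1), with carrier labels exchanged within P216L strata, gave p = 0.183 over 120 arrangements, where the smallest possible is 0.0167. A count per gene does not show the substitution, so it does not test the genotype labels.

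**Figure D1:**
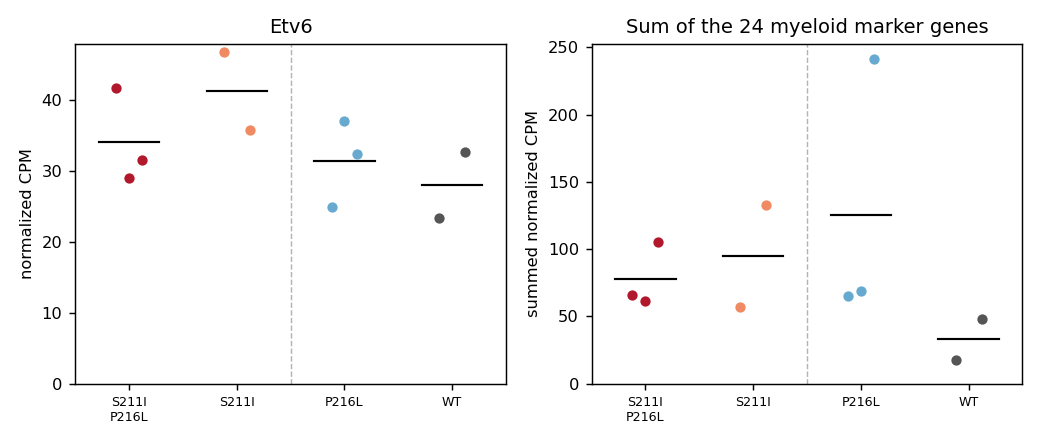
Left, TMM-normalized CPM of Etv6, and right, summed CPM of 24 myeloid marker genes, by genotype; points are libraries, bars are group means, and carriers stand left of the dashed line. Etv6 ranges overlap between carriers and non-carriers, and the myeloid sum runs from 57.2 to 132.8 CPM in carriers and from 17.9 to 241.4 CPM in non-carriers.

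The genes that led the S211I term did so below the threshold. Named here are the 10 genes with the smallest p in each direction, with edgeR adjusted p between 0.397 and 0.9997. Of these 20 genes, 8 had carrier and non-carrier libraries that did not overlap, as had 0.706% of all tested genes. Since the 20 genes were ranked by this contrast, which favors such separation, their values and this count are given as a description.

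Among the genes with higher values in carriers, Ccnd1, the D-type cyclin that drives entry into the cell cycle, had the smallest p. It was at 14.3, 21.1 and 25.1 CPM in the double mutant and 3.36 and 10.2 CPM in S211I, against 6.95, 5.37 and 3.57 CPM in P216L and 4.08 and 2.15 CPM in WT. The double mutant libraries stood above all others, while S211I replicate 1 lay among the non-carriers. The additive log2 fold change was 1.63 ± 0.32 (SE; edgeR adjusted p = 0.397). Alox5, which makes the precursor of leukotrienes, was at 16.2, 13.4 and 13.2 CPM in the double mutant and 4.47 and 10.9 CPM in S211I. It was at 5.69, 4.92 and 6.55 CPM in P216L and 1.59 and 3.31 CPM in WT, with a log2 fold change of 1.42 ± 0.29 (SE; edgeR adjusted p = 0.397). Here too S211I replicate 1 fell inside the non-carrier range.

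For 4 of the other leading genes with higher values, carrier and non-carrier libraries did not overlap. Cenpj, a centriole assembly protein, was at 18.1, 16 and 13.8 CPM in the double mutant and 19.8 and 19.9 CPM in S211I, against 10.1, 13 and 5.06 CPM in P216L and 10.8 and 11 CPM in WT. All 5 carriers were above all 5 non-carriers. Its log2 fold change was 0.72 for the double mutant over P216L and 0.86 for S211I over WT. Dcp1b, part of the mRNA decapping machinery, ranged from 19.7 to 24.1 CPM in carriers and from 12.2 to 17.3 CPM in non-carriers, again without overlap. Cbx6, a Polycomb chromobox protein, ranged from 36.5 to 43.5 CPM in carriers and from 22.6 to 31.3 CPM in non-carriers. Coil, the Cajal body protein coilin, and Aph1a, a gamma-secretase subunit, had log2 fold changes of 0.60 and 0.51 with overlapping libraries. Rnf17, a Tudor protein known from germ cells, had 1.05. For 2510009E07Rik it was 1.71, with 2.43 for the double mutant over P216L and 0.60 for S211I over WT. Naip6 was at 0.538 to 2.88 CPM in carriers and 0 to 0.532 CPM in non-carriers, a level set by few counts in a family of similar genes whose reads can be split, and is uncertain.

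Among the genes with lower values, Mbd2, which binds methylated CpG and belongs to the NuRD repressor complex, had the smallest p. It was at 210, 174 and 212 CPM in the double mutant and 416 and 451 CPM in S211I, against 410, 380 and 373 CPM in P216L and 458 and 486 CPM in WT. The double mutant stood apart from all other libraries, and S211I lay within the range of the non-carriers. The additive log2 fold change was -0.62 ± 0.13 (SE; edgeR adjusted p = 0.490). Ybx3, a Y-box protein that binds mRNA, showed the same layout of libraries at a higher level, with 964, 738 and 802 CPM in the double mutant and 1510 and 1465 CPM in S211I. It was at 1616, 1482 and 1442 CPM in P216L and 1586 and 1506 CPM in WT, with a log2 fold change of -0.54 ± 0.13 (SE; edgeR adjusted p = 0.949). In the gene order of the annotation, Ybx3 is 2 tested genes away from Etv6 on chromosome 6. Of the 80 tested genes nearest to Etv6, 5 had an unadjusted p under 0.05 (6.25%), against 3.5% of all genes. The 5 include Ybx3, which was itself named for its small p in this contrast. The 2 shares are therefore given as a description and do not test for an excess near Etv6.

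A further 4 genes with lower values had carriers below non-carriers in every library. The gene with Entrez ID 125488414, which has no symbol in the annotation used, was at 21, 17.7 and 22.8 CPM in the double mutant and 31.3 and 33.2 CPM in S211I, against 36.3, 43.4 and 34.5 CPM in P216L and 39.5 and 41.7 CPM in WT. Cdk2ap1, a small protein that binds CDK2, ranged from 224 to 276 CPM in carriers and from 284 to 327 CPM in non-carriers. Phospho2, a phosphatase, ranged from 64.1 to 84.6 CPM in carriers and from 88.3 to 100 CPM in non-carriers. Lmcd1, a LIM-domain protein, ranged from 17.4 to 24.4 CPM in carriers and from 25.4 to 39.3 CPM in non-carriers. The others overlapped: Cyhr1, Ppp2cb (a catalytic subunit of protein phosphatase 2A), Neil3 (a DNA glycosylase) and Galns (a lysosomal sulfatase) had log2 fold changes of -0.61, -0.47, -0.49 and -0.53.

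**Figure D2:**
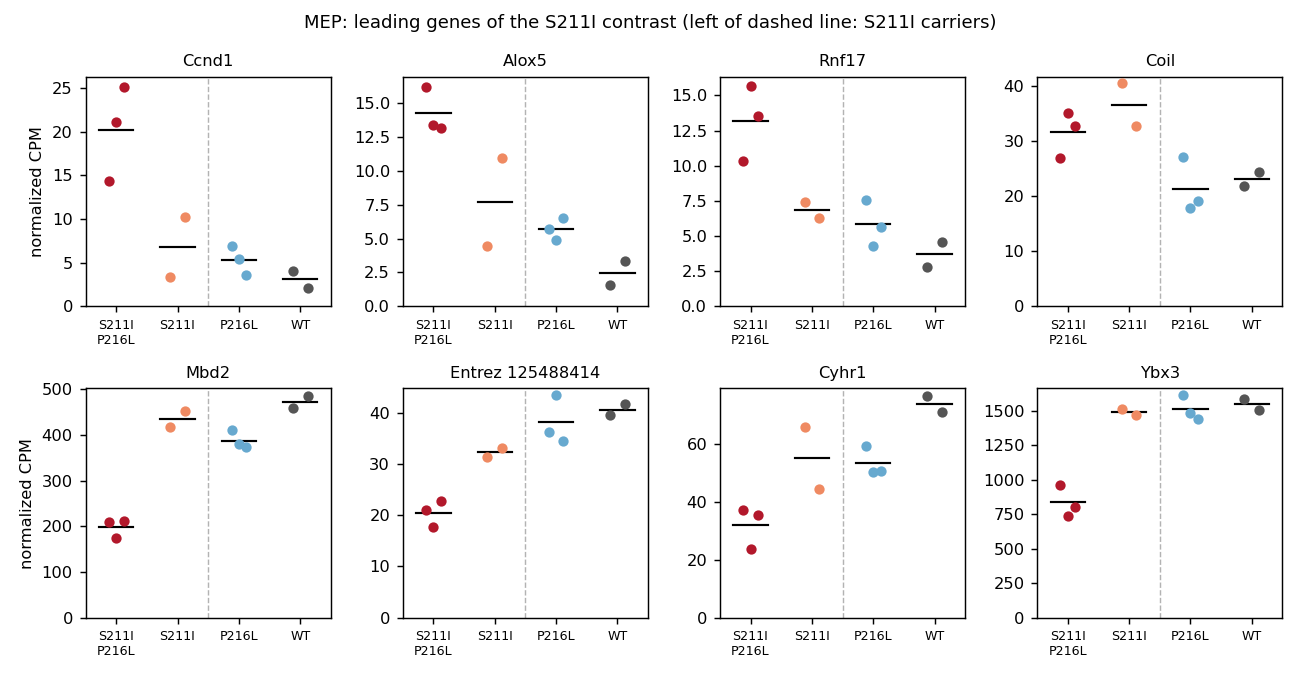
TMM-normalized CPM by genotype for the 4 genes with the smallest p in each direction of the S211I term; points are libraries, bars are group means, and S211I carriers stand left of the dashed line. For Mbd2 and Ybx3 the double mutant lies below all other groups, while S211I lies among P216L and WT.

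The additive model averages the S211I effect over both P216L backgrounds, and a fit with 4 groups gave the effect in each. Without P216L, S211I over WT gave 0 of 10773 genes past the threshold in edgeR (0.0%), with 511 at an unadjusted p under 0.05 (4.74%), and DESeq2 and voom also gave 0. With P216L, the double mutant over P216L gave 12 genes (0.111%), of which 11 were lower (0.102%) and 1 was higher (0.00928%). Before adjustment, 460 genes had a p under 0.05 (4.27%). The first contrast rests on 2 libraries against 2 and the second on 3 against 3, so the counts do not by themselves show a difference. The difference of the effects, tested as an interaction, passed for 1 gene (0.00928%), Qk, with 608 at an unadjusted p under 0.05 (5.64%), and 0 genes passed with a higher value (0.0%).

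The 12 genes called were named for this contrast after their values were seen. Mbd2, Ybx3 and Ppp2cb were also among the leading genes of the additive model, and Qk was also the interaction call. Double mutant and P216L libraries did not overlap for any of the 12, nor for 9.47% of all genes, and S211I and WT libraries overlapped for 8 of the 12, while 36.7% of all genes had no overlap there. The gene regulators and RNA-binding proteins among them were Mbd2, Ybx3, Qk and Khdrbs3. Qk, the KH-domain splicing regulator quaking, was at 65.6, 64.3 and 63.8 CPM in the double mutant, against 157, 149 and 102 CPM in P216L. S211I alone was at 182 and 171 CPM, against 123 and 134 CPM in WT. Thus the double mutant was below P216L in every library, while S211I was above WT in both. The log2 fold change was -1.09 ± 0.15 (SE) for the double mutant over P216L (edgeR adjusted p = 0.000845) and 0.45 for S211I over WT (edgeR adjusted p = 0.939). The difference between them was -1.54 on the log2 scale (edgeR adjusted p = 0.0135). That call was lost in 7 of 16 alternatives, among them leaving out S211I replicate 1 or 2, double mutant replicate 2 or 3, WT replicate 1 or P216L replicate 1, with values between -1.70 and -1.43 over all 16.

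Mbd2 fell in the double mutant relative to P216L by 0.96 on the log2 scale (± 0.11 SE; edgeR adjusted p = 0.000171) and had -0.12 in S211I over WT. Ybx3 fell by 0.86 (± 0.10 SE; edgeR adjusted p = 0.000318) and had -0.06 in S211I over WT. For both, the interaction had an edgeR adjusted p of 0.217. It passed for both in 4 of 16 alternatives, which were DESeq2, voom, no low-count filter and leaving out P216L replicate 3. Khdrbs3, a KH-domain RNA-binding protein, was at 3.53, 5.30 and 10.7 CPM in the double mutant and 48, 24 and 20.5 CPM in P216L, against 26.8 and 45.4 CPM in S211I and 26.2 and 34.3 CPM in WT. It had the largest fold among the 12, a log2 fold change of -2.23 ± 0.38 (SE; edgeR adjusted p = 0.0368).

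Cul3, Znrf2 and Egln1 also fell. Cul3, the scaffold of a family of ubiquitin ligases, was at 77.4, 77.7 and 79.0 CPM in the double mutant, against 188, 153 and 138 CPM in P216L. It was at 179 and 169 CPM in S211I, against 141 and 180 CPM in WT. The log2 fold change was -1.03 ± 0.14 (SE; edgeR adjusted p = 0.000788) with P216L and 0.11 without. Znrf2, a ubiquitin ligase of the RING type, was at 28, 27.9 and 26.9 CPM in the double mutant, against 55.9, 66.8 and 50.6 CPM in P216L (log2 fold change -1.07; edgeR adjusted p = 0.0112). Egln1, the prolyl hydroxylase that marks hypoxia-inducible factor for degradation, was at 10.8, 14.6 and 14.1 CPM in the double mutant, against 42.2, 34.9 and 22.6 CPM in P216L (log2 fold change -1.34; edgeR adjusted p = 0.0190). In S211I alone, Znrf2 was at 58.5 and 64.4 CPM, inside the WT range of 48.7 to 68.5 CPM, and Egln1 was at 33.9 and 26 CPM, against 22.5 and 23.6 CPM in WT.

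Of the remaining 5, Bex4, an X-linked gene of the brain-expressed family, was the one that rose. It was at 69.7, 71.1 and 85.3 CPM in the double mutant, against 26.4, 21.9 and 38.1 CPM in P216L. S211I was at 32.1 and 29.2 CPM, against 41.6 and 21.6 CPM in WT, and the log2 fold change was 1.42 ± 0.23 (SE; edgeR adjusted p = 0.0112) with P216L and -0.03 without. Plek, the platelet kinase substrate pleckstrin, was at 3.32, 1.73 and 4.39 CPM in the double mutant, against 13.1, 7.91 and 20.2 CPM in P216L (log2 fold change -2.11; edgeR adjusted p = 0.0465). That call for Plek held in 8 of 16 alternatives and was lost, among others, without P216L replicate 3, which held its highest value. Serpina3g, a serpin in a cluster of similar genes and therefore uncertain, Ppp2cb, and Spon2, an extracellular matrix protein, had log2 fold changes of -2.15, -0.74 and -0.78. Across all 12 genes, S211I over WT lay between -0.12 and 0.45 on the log2 scale, and 1 of them, Qk, had an unadjusted edgeR p under 0.05 there. Mbd2, Ybx3, Cul3 and Qk passed in the double mutant over P216L under all 16 alternatives, and the other 8 in 6 to 13 of them.

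**Figure D3:**
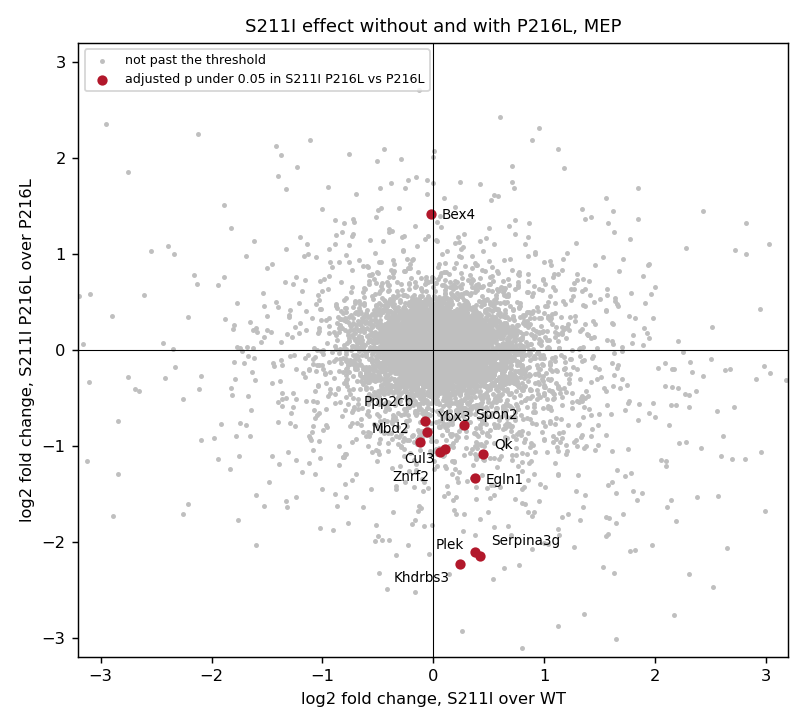
Log2 fold change of S211I over WT (x) against that of the double mutant over P216L (y) for each tested gene in MEP; red points passed the threshold on the y axis, and 68 genes lie outside the axes of ± 3.2. The 12 red points lie between -0.12 and 0.45 on the x axis.

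**Figure D4:**
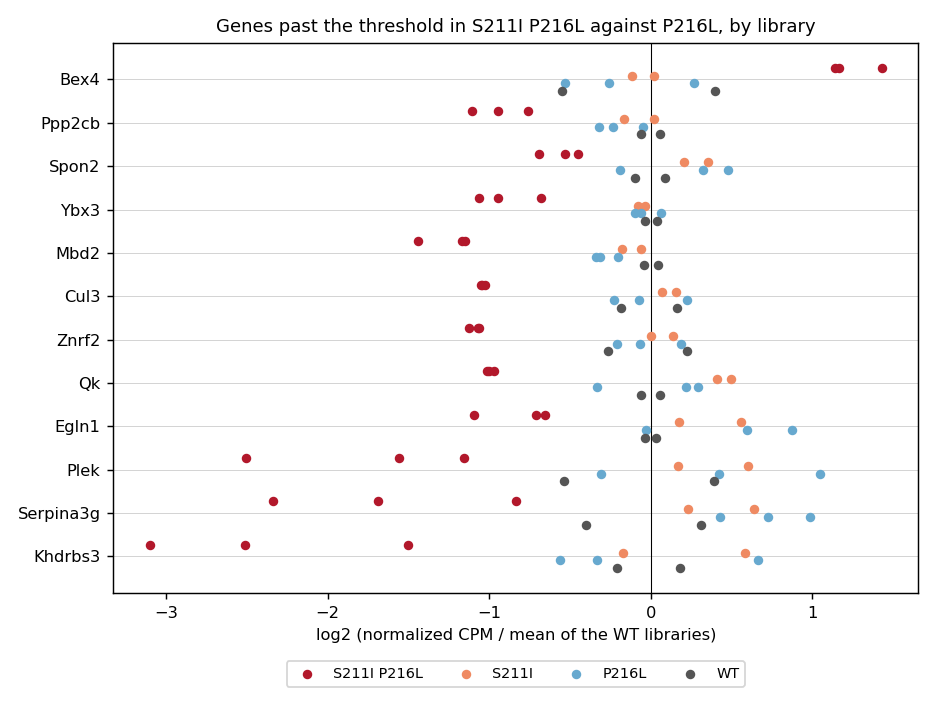
The 12 genes past the threshold in the double mutant over P216L, by library, as log2 of normalized CPM over the WT mean. The double mutant libraries stand apart from P216L for each gene, and S211I lies near WT for most.

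Since ETS factors bind a GGAA core, the RefSeq promoter windows (GRCm38.p6; 250 bases before to 50 after the start) were searched on both strands. Of the 12 genes, 8 had a window. Shown are the 250 bases before the start for those of the 4 genes called under every alternative that had one: Ybx3 (chr6:131388451-131388700, minus strand), Cul3 (chr1:80340691-80340940, minus strand) and Qk (chr17:10319362-10319611, minus strand). Capitals mark GGAA or its complement TTCC.
Ybx3: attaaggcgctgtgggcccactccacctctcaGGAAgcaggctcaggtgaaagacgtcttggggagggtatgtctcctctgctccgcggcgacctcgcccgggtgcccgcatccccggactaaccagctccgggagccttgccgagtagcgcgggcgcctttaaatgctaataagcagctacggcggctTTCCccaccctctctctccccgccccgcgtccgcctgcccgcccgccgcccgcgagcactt
Cul3: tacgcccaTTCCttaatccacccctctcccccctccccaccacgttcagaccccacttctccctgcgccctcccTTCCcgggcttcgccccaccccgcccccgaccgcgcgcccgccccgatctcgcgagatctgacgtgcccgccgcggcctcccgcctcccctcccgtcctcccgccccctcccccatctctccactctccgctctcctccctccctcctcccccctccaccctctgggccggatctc
Qk: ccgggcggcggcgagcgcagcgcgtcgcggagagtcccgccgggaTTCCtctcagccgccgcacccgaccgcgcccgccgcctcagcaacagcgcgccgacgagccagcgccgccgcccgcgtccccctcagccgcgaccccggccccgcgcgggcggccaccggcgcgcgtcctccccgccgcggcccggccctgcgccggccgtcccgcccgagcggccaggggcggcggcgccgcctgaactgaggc
All 8 windows held GGAA or TTCC, as did 96.0% of the 32851 windows in the table. The longer ETS motif CCGGAA, which contains the core, was on either strand in 0 of the 8 and in 14.9% of all windows. Of the 20 leading genes of the additive model 13 had a window, and 3 of those, Aph1a, Dcp1b and Phospho2, held CCGGAA. A match describes letters in these windows and not a bound site.

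Gene lists covering MEP identity, red cell and platelet programs, other blood cells, signalling, the cell cycle and metabolism gave no call. Over 28 lists with 460 tested members, 0 passed the threshold for S211I in edgeR, and 16 had an unadjusted p under 0.05 (3.48%, against 3.5% of all genes), 4 with higher and 12 with lower values. List medians ran from -0.63 to 0.23 on the log2 scale, beside 0.003 over all genes and a median SE per gene of 0.152. The median moved beyond 0.1 in either direction for 6 lists. Of all 10480 tested genes, 5310 had positive and 5170 negative log2 fold changes.

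Of 20 MEP identity genes, 0 passed, 6 had positive and 14 negative log2 fold changes, and the median was -0.05. Tfrc, the transferrin receptor, was at 494, 423 and 369 CPM in the double mutant and 643 and 483 CPM in S211I, against 407, 456 and 357 CPM in P216L and 422 and 372 CPM in WT (log2 fold change 0.25; edgeR adjusted p = 0.9997). Of 23 tested red cell genes, 0 passed, 18 were negative, and the median was -0.07. At an unadjusted p under 0.05, 4 of the 23 had lower values, Car2, Hba-a1, Hba-a2 and Hbb-bs, beside 1.59% of all genes. All 25 red cell genes of the list together summed to 22130 to 24420 CPM in carriers and 24070 to 28170 CPM in non-carriers. Most of each sum came from Car1 and Car2, so it says little about the other members. The 4 adult globin genes had log2 fold changes of -0.747 for Hba-a1, -0.996 for Hba-a2, -1.386 for Hbb-bs and -0.753 for Hbb-bt, each with an edgeR adjusted p of 0.9997. Hba-a2 ranged from 121 to 182 CPM in carriers and from 169 to 503 CPM in non-carriers, and Hbb-bs from 47.9 to 138.7 CPM in carriers and from 102.4 to 479.9 CPM in non-carriers. P216L replicate 1 held the lowest non-carrier value of all 4 genes, inside the carrier range or, for Hbb-bt, below it, and P216L replicate 3 held the highest. The alpha-globin genes are near-identical, as are the beta-globin genes, so the split of reads within each pair is uncertain. Alas2, the first enzyme of red cell heme synthesis, was at 6.64, 6.79 and 6.58 CPM in the double mutant and 19.6 and 3.77 CPM in S211I. It was at 8.85, 20.6 and 26.8 CPM in P216L and 16.5 and 17.8 CPM in WT (log2 fold change -1.09; edgeR adjusted p = 0.9997), and the 2 S211I libraries lay far apart.

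Of 19 tested megakaryocyte genes, 0 passed for S211I, 15 were negative, and the median was -0.30. In the 4-group fit, 20 members were tested, with a median of -0.51 for the double mutant over P216L and 0.07 for S211I over WT. Plek was the 1 of the 20 that passed the threshold with a lower value in the double mutant over P216L, beside 0.102% of all genes. Some lists of other cell types, and the interferon list, had medians of the same signs in these 2 contrasts. These medians were -0.66 and 0.25 for 16 stem cell genes, -0.88 and 0.50 for 10 lymphoid genes, and -0.37 and 0.30 for 24 interferon genes, beside -0.002 and 0.004 over all genes. The 6 endothelial and stromal genes went the other way, with medians of 0.15 and -0.11. Among non-carriers, the 6 stem cell markers summed lowest in WT replicate 1 and highest in P216L replicate 3, which did not hold for B cell markers. The part of these libraries in the medians was not tested. Pf4, platelet factor 4, ranged from 0.823 to 1.5 CPM in carriers and from 1.19 to 5.06 CPM in non-carriers, with the highest value in P216L replicate 3. Of 19 tested co-repressor genes, 0 passed for S211I. Mbd2 was the 1 of 19 that passed with a lower value in the double mutant over P216L, beside the same 0.102% of all genes. Hdac3, the catalytic deacetylase of the NCoR complex, ranged from 156 to 194 CPM in carriers and from 146 to 163 CPM in non-carriers. Of 28 nuclear transport genes, 0 passed, 21 were positive, and the median was 0.06. In the ETS family, 0 of 14 passed, and the median was 0.12.

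Markers of other blood cells differed widely between libraries of one genotype. The 24 myeloid genes summed to 66.2, 61.7 and 105.3 CPM in the double mutant and 57.2 and 132.8 CPM in S211I, against 65.6, 69.2 and 241.4 CPM in P216L and 17.9 and 48.2 CPM in WT. Of 14 tested members 0 passed. Their median for S211I was 0.23. In the 4-group fit, 17 members were tested, with a median of -0.58 for the double mutant over P216L and 1.58 for S211I over WT. The part of these markers in the within-background results was not tested. The count of calls for the double mutant over P216L was 24 when WT replicate 1 and P216L replicate 3 were left out together, an alternative chosen after seeing the data. In bulk libraries, fewer cells of a type and less RNA per cell cannot be told apart.

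The medians of the cell cycle and metabolic lists did not move beyond 0.1 in either direction. Of 30 S phase and 30 mitosis genes, 0 passed, and their medians were -0.04 and 0.03. Among 12 tested cyclins, CDKs and CDK inhibitors, Ccnd1 was the 1 member with an unadjusted p under 0.05, and the list median was -0.04. Of 26 oxidative phosphorylation genes, 0 passed, 22 were negative, and the median was -0.10. Beside this, 5170 of all 10480 genes were negative, with a median of 0.003. Btg2, an antiproliferative p53 and immediate early target, was at 4.77, 6.10 and 3.84 CPM in the double mutant and 15.8 and 9.50 CPM in S211I. It was at 13.5, 16.9 and 10.4 CPM in P216L and 12.1 and 14.8 CPM in WT (log2 fold change -0.89; edgeR adjusted p = 0.9997), so the double mutant was below every other library. Pdia4, a chaperone of the endoplasmic reticulum, ranged from 87.7 to 108 CPM in carriers and from 67 to 87 CPM in non-carriers, with no overlap (log2 fold change 0.30; edgeR adjusted p = 0.9997).

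**Figure D5:**
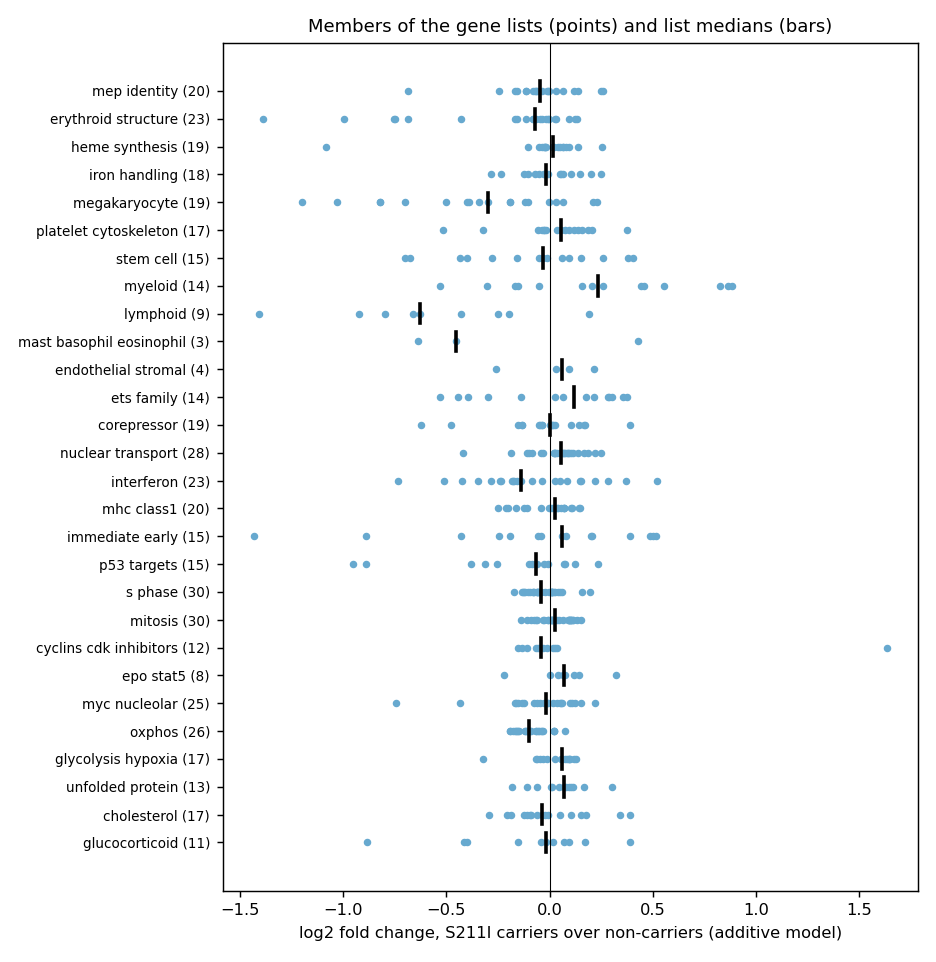
Log2 fold change of S211I carriers over non-carriers in the additive model for the tested members of 28 gene lists (points; number tested in parentheses) with list medians (bars). Medians lie between -0.63 for the lymphoid list and 0.23 for the myeloid list, and no member passed the threshold.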

How the data were processed

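Low-input RNA-seq of sorted MEP was analysed in 10 libraries, prepared with a SMART-Seq v4 low-input kit per the labels' protocols. The values deposited by the authors are estimated counts for 30519 Entrez genes. FastQC, Salmon and GRCm39 are named per the submitters' processing notes, without versions. Between 25.78 and 33.07% of nonzero values per library were not whole, and values were rounded for testing. Symbols came from a GRCm38.p6 annotation for 30211 genes; the other 308 held 0.0442% of counts. The kit does not mark strand or molecules, so overlapping antisense genes cannot be separated and reads are not independent molecules.

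Tests used edgeR 4.0.16 (limma 3.58.1, R 4.3.3): TMM, filterByExpr (minimum count 10, minimum total 15), robust quasi-likelihood fits and Benjamini-Hochberg adjustment at 0.05. The additive fit (S211I plus P216L) tested 10480 genes with a biological coefficient of variation of 0.175 and 7 residual degrees of freedom; the 4-group fit tested 10773 with 0.174 and 6. SE is the log2 fold change over the root of the F statistic. Libraries of a group differed by more than sampling noise (chi-square per degree of freedom 4.63 to 15.22 over 8 pairs). Scripts were tested on simulated data. Alternatives were RLE size factors, no filter, a replicate block, no P216L term, the mean of the within-background effects, DESeq2 1.42.0, voom and each library left out.

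The comparison, gene lists and tests were chosen with earlier results of these data known. Named genes were the 10 with the smallest p per direction. The rule also named the member of each list with the smallest p per direction (not all are described). It further named the interaction call, the 3 leading P216L genes (Mbd2, Camsap2 and Anln) and Etv6. The 12 genes of the double mutant over P216L were added after their values were seen. Of those, Mbd2, Ybx3, Ppp2cb and Qk were already named. One gene that this rule names is not reported here.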

Additional observations from a re-analysis of the deposited data

Results flagged for a closer look

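Among the 82 named genes, each examined in carriers and in non-carriers, 14 of 164 sets of 5 libraries held 1 library far from the other 4 by Dixon's test. With 5 independent values drawn alike, chance sets about 1 in 20 such sets apart. These sets pool genotypes and share libraries across genes named from the same data, so 14 of 164 cannot be read against that rate. Among carriers, double mutant replicate 2 was low for Aph1a (29.7 CPM) and Cdk2ap1 (223.6 CPM), double mutant replicate 3 was low for Spi1 (2.605 CPM), and S211I replicate 2 was low for Pcbp2 (81.4 CPM). Among non-carriers, P216L replicate 3 was high for Cpa3 (19.65 CPM), Aldoa (498.9 CPM) and Anxa1 (30.07 CPM) and low for Cenpj (5.06 CPM). WT replicate 1 was low for Zyx (8.86 CPM), Psmb8 (76.2 CPM) and Csf1r, which was at 0 CPM. P216L replicate 1 was high for Pdzk1ip1 (38.9 CPM) and low for Cdk2ap1 (284.0 CPM), and P216L replicate 2 was high for Gar1 (167.1 CPM).

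The S211I effect on Qk differed between backgrounds, with an interaction of -1.54 on the log2 scale (edgeR adjusted p = 0.0135): the double mutant was below P216L, and S211I was above WT.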

How the results depend on the processing

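The count of genes past the threshold for S211I was 0, and became 13 with no low-count filter, 4 with DESeq2, 1 with the mean of the within-background effects (Mbd2) and 0 to 2 with 1 library left out (Ccnd1 without S211I replicate 1; Ccnd1 and Bex4 without WT replicate 1). For P216L it was 0, and became 27 with no filter, 7 with DESeq2 and 0 to 1 with 1 library left out. For S211I over WT it was 0 under every alternative run. For the double mutant over P216L it was 12, and became 47 with no filter, 27 with DESeq2, 34 with voom, 24 without WT replicate 1 and P216L replicate 3 together, and 5 to 20 with 1 library left out. It was 5, 6 and 7 without double mutant replicates 1, 2 and 3, 5 without P216L replicate 1 and 20 without P216L replicate 3. For the interaction it was 1, and became 32 with no filter, 12 with DESeq2, 7 with voom, 0 with the replicate block and 0 to 13 with 1 library left out. Of the 460 list members tested with the filter, 0 passed, which became 3 with no filter (Cxcl12, a list member that the filter had left out, passed as well), 2 with DESeq2, 1 with the mean of the within-background effects and 0 to 1 with 1 library left out. The cause of these changes was not tested.

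The log2 fold change of Etv6 ran from 0.18 to 0.39 with 1 library left out. Among the named genes reported, directions reversed for low or small values: Ebf1 (-0.35 to 0.80 with 1 library left out, -0.01 without P216L replicate 3, -0.24 without the pair), Hdc (-0.35 to 0.79), Cpa3 (-0.61 to 0.032), Pecam1 (-0.59 to 0.003), and, without the pair, Jak2 (-0.015) and Aldoa (0.001). Deviations from group means correlated at -0.111 to 0.035 over 12 same-numbered pairs and at -0.101 to 0.111 over 25 others. In groups of 2 libraries the deviations are equal and opposite, so these ranges cannot decide whether replicate numbers pair the libraries. With the replicate block the count for the double mutant over P216L was 9, and Qk's interaction was -1.43, no longer past the threshold. With 2 libraries of S211I and of WT, leaving 1 out assumes that the other varies like the remaining groups. Genes at a few CPM, such as Naip6 and Pf4, rest on few counts.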
